A study of Rattus norvegicus with 24 samples.

Results

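Skin that received a polymer gel in the dermis was compared directly with skin that received the same gel under the skin. The members are the 12 gel libraries of a series of 24, chosen by their sample titles: 6 from intradermal (ID) and 6 from subcutaneous (SC) injection, across all genes. The animals were Sprague-Dawley rats, an outbred laboratory strain, the material was the biodegradable polymer called T-gel, and dorsal skin was taken on day 7. The other 12 libraries came from skin injected with saline at the same sites and are used only as a background for the distance between the sites. No label names an age, a sex, a dose or the number of animals. Because separate animals are not stated, each p-value reflects only the spread among these libraries, which may be technical. Each library is a bulk sample of skin, in which fewer cells of a type and less RNA per cell cannot be told apart.

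An implanted polymer is met by macrophages, phagocytes that take up debris, release chemokines and can fuse into foreign-body giant cells on material too large to engulf. Activated macrophages of rodents make nitric oxide and itaconate, rely on glycolysis, and direct fibroblasts that lay down and crosslink collagen. The dermis holds hair follicles, sebaceous glands, nerves and vessels under the epidermis, whereas the subcutis is mainly fat below a thin sheet of skeletal muscle, the panniculus carnosus.

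The gel libraries held 14024353 to 18349452 counts. Of 23095 genes in the table, 4210 had no count in any gel library and 14072 were tested. Levels below are CPM, counts scaled to a common library size with TMM factors, and differences are log2 values coded as ID gel minus SC gel, so a positive difference means a higher level in ID gel. The first principal component of log2 CPM held 68.9% of the variance and separated the sites, with ID gel at 44.0 to 95.3 and SC gel at -84.3 to -41.0. Correlations of log2 CPM across genes were 0.937 to 0.989 within ID gel, 0.935 to 0.987 within SC gel and 0.803 to 0.936 between the sites. SC gel replicates 2 and 4 had the highest macrophage levels of their group, and ID gel replicate 5 and SC gel replicate 1 the highest fast muscle levels. Where leaving out either pair ended the call of a named gene, both values are given. Shifts in the size of a difference without a pair are given for some genes only. Mitochondrial genes held 3.41% to 4.9% of counts in ID gel and 3.68% to 5.03% in SC gel.

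Most tested genes differed between the gel sites. The quasi-likelihood test of edgeR called 9155 genes at a Benjamini-Hochberg adjusted p under 0.05, which is 65.1% of those tested. The calls comprised 4620 genes higher in ID gel (32.8%) and 4535 higher in SC gel (32.2%). Calls of at least 1 log2 unit leaned to SC gel, with 2263 genes (16.1%) against 1439 higher in ID gel (10.2%). The libraries of the sites did not overlap for 6047 genes (43.0%). With so many genes called, a share of a gene list near these backgrounds says little about the list.

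The split by direction depended on scaling. The median difference over all tested genes was -0.01 with TMM factors, -0.22 with library totals only, -0.13 with upper quartile factors and 0.11 when all 24 libraries were fitted together. The corresponding splits were 3167 genes higher in ID gel against 6241 higher in SC gel for totals, 3795 against 5533 for upper quartile factors and 5918 against 4132 for the 24-library fit. On log2 FPKM plus 1 the median was -0.15 and the split 3053 against 5418. Small differences should be read against these shifts. No label names a batch, but a gap of more than 0.5 log2 units separated replicates 1 to 3 from replicates 4 to 6 for 337 genes among the ID gel libraries and 149 among the SC gel libraries. Of these, 50 parted the replicates at both sites in the same direction. Within replicates 1 to 3 alone 7620 genes were called, and within replicates 4 to 6 alone 6498.

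**Figure D1:**
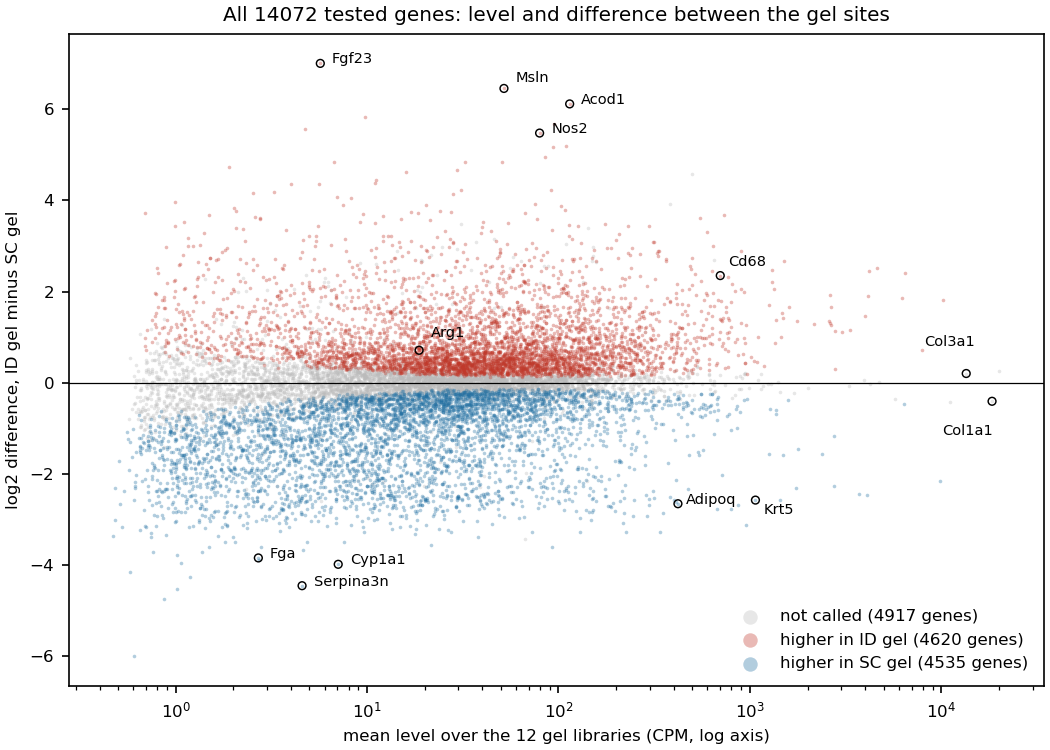
Level and difference of every tested gene. The x axis is the mean CPM over the 12 gel libraries on a log scale, the y axis the log2 difference of ID gel minus SC gel, and colours mark the 4620 genes called higher in ID gel, the 4535 called higher in SC gel and the rest. Circled genes are named in the text: Fgf23, Msln, Acod1 and Nos2 lie above 5 log2 units, whereas Col1a1 and Col3a1, among the most abundant genes, lie near 0.

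Promoter windows are shown for a gene from each end of this range, since both ends are described next. The windows come from RefSeq (GRCr8), run from 250 bases before to 50 bases after the annotated start on the strand of the gene, and could be matched for 4 of the 10 largest differences higher in ID gel and 8 of the 10 higher in SC gel. Acod1 (chr15:86286289-86286588, plus strand) stands for ID gel and Krtap11-1 (chr11:42297102-42297401, minus strand) for SC gel. Capitals mark every match to 4 motifs searched on both strands, chosen after the leading genes were known: the TATA box TATAAA, the hypoxia core ACGTG, the xenobiotic core GCGTG and the NF-kappaB decamer.
Acod1: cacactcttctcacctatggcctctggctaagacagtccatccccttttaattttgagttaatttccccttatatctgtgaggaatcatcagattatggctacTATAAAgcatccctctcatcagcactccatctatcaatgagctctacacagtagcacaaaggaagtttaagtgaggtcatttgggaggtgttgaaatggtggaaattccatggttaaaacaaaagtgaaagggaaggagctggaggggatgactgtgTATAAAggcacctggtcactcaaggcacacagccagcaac
Krtap11-1: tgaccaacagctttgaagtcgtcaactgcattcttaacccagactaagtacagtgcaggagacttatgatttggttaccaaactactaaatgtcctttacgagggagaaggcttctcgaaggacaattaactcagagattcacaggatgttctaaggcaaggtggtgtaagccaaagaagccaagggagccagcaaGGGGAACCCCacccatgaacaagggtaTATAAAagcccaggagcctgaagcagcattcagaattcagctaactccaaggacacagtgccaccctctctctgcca
The TATAAA letters were matched in 1 of the 4 ID windows and 2 of the 8 SC windows, against 14.2% of 33469 windows in the table. In Acod1 1 of the 2 matches starts after the annotated start. The SC matches were Krtap11-1 and the gene named Anos1, whose name is uncertain. Where a gene had several windows, only the first was searched. The NF-kappaB decamer was in 0 of 4 and 1 of 8 (4.18% of all windows), the xenobiotic core in 1 of 4 and 1 of 8 (29.7%), and the hypoxia core in 0 of 4 and 0 of 8 (19.3%). With 12 windows these matches describe the sequences and nothing more.

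Among genes with a mean of at least 2 CPM and no overlap between the sites, the 10 largest differences higher in ID gel combined genes of activated macrophages with genes of other known roles. Nos2, the inducible nitric oxide synthase, ran from 76.6 to 295 CPM in ID gel (median 146) and from 1.14 to 8 in SC gel (median 1.99). Acod1, which makes itaconate, ran from 102 to 388 CPM in ID gel (median 219) and from 0 to 7.77 in SC gel (median 3.32). For both genes the lowest ID gel library lay far above the highest SC gel library. The log2 differences were 5.48 ± 0.54 (SE) for Nos2 (edgeR adjusted p = 3.68e-06) and 6.12 ± 0.81 for Acod1 (2.88e-05). In this group also stood Clec4e, a receptor for mycobacterial glycolipids and dying cells (4.96 ± 0.52), Cxcl3, a neutrophil chemokine (4.84 ± 0.5), and Slc16a3, the lactate exporter MCT4 (5.68 ± 0.4).

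The largest difference of all was in Fgf23, a phosphate-regulating hormone known chiefly from bone. It ran from 5.32 to 28.8 CPM in ID gel (median 7.28) and from 0 to 0.182 in SC gel (median 0.059), a difference of 7.01 ± 0.64 (edgeR adjusted p = 2.33e-06). With so few counts in SC gel the size of this difference depends on the small count that the model adds. Msln, a surface protein of mesothelium, had medians of 104 and 0.993 CPM (6.46 ± 0.42), and Psca, a surface protein of epithelia, had 198 and 2.35 (5.2 ± 0.75). Leaving out SC gel replicate 2 moved Psca to 5.79. Ccdc38 had medians of 8.36 and 0.151 CPM (5.56 ± 0.46). None of these 10 genes overlapped between the sites, as the naming rule required.

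By the same rule, the 10 largest differences higher in SC gel were smaller, from -4.46 to -3.49. Serpina3n, an acute-phase protease inhibitor, led with 6.78 to 12.4 CPM in SC gel (median 8.32) and 0.0648 to 0.564 in ID gel (median 0.454). Its difference was -4.46 ± 0.3 (edgeR adjusted p = 4.75e-07). Cyp1a1, the classic target of the aryl hydrocarbon receptor, ran from 9.99 to 19.4 CPM in SC gel (median 12.3) and from 0.418 to 1.46 in ID gel (median 0.592), a difference of -3.99 ± 0.32 (1.29e-06). Far2, which makes the fatty alcohols of sebum waxes, was the most abundant of these genes, with medians of 170 CPM in SC gel and 12.7 in ID gel (-3.61 ± 0.28).

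Others at this end were Fga, the fibrinogen alpha chain (-3.85 ± 0.49), Serpinb11, an epithelial serpin (-3.67 ± 0.36), the carboxylesterase gene Ces4a (-3.56 ± 0.47), Mettl7b (-3.5 ± 0.45) and RGD1308878 (-3.6 ± 0.38). The gene that the file names Anos1 (-3.49 ± 0.48) lies on chromosome 10, and its name is uncertain. Krtap11-1, a keratin-associated protein of hair, had a difference of -3.89 ± 0.86 that rested in part on SC gel replicate 3, at 18.6 CPM against 1.7 to 4.45 in the rest of its group. Without that library it was -2.84, and without ID gel replicate 4 it was -4.62. Leaving out ID gel replicate 6 moved Mettl7b to -4.17.

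**Figure D2:**
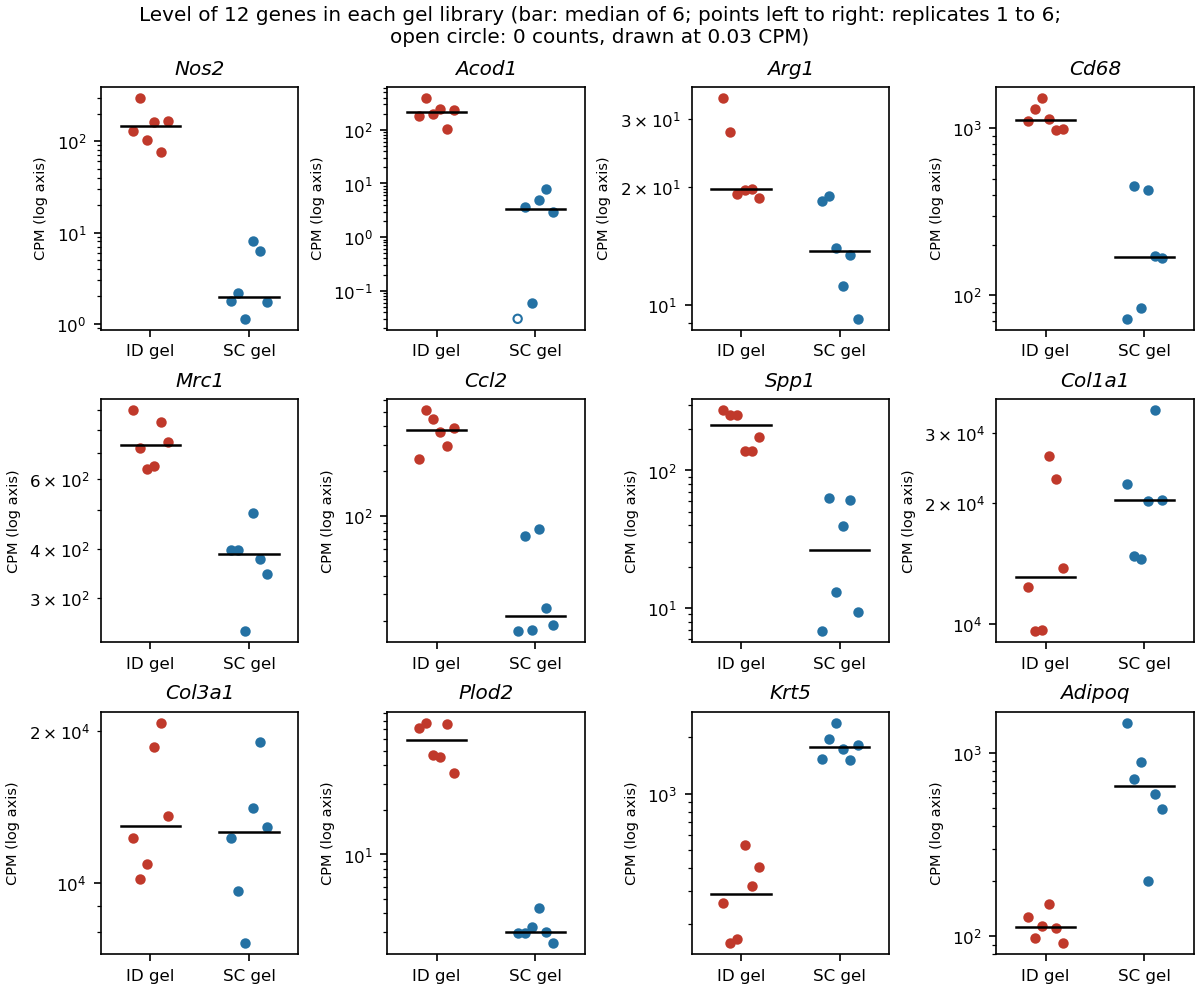
Level of 12 genes in each gel library. The y axes are CPM on a log scale, each point is a library in replicate order, bars are medians of 6, and an open circle is a library with 0 counts drawn at 0.03 CPM. Nos2, Acod1, Cd68, Ccl2, Spp1 and Plod2 are higher in every ID gel library, Krt5 and Adipoq in every SC gel library, and Arg1, Col1a1 and Col3a1 overlap.

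Macrophage genes were higher in ID gel as a group. Of 23 tested genes of the general macrophage list, 19 were higher in ID gel, 0 were higher in SC gel and 4 were not called, with a median difference of 2.12. Cd68, a lysosomal glycoprotein of macrophages, ran from 971 to 1510 CPM in ID gel (median 1119) and from 72.4 to 452 in SC gel (median 169). The SC gel libraries differed among themselves by far more than the ID gel libraries, and those at the top were replicate 2 at 452 and replicate 4 at 428. The difference of Cd68 was 2.35 ± 0.43 (edgeR adjusted p = 0.000367), and without SC gel replicates 2 and 4 it was 3.22.

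Other genes of the list are named here for their large differences. The lowest difference of the list, -0.39, was among the 4 genes not called. Msr1, a scavenger receptor, had a difference of 2.95 ± 0.34, Itgam, the CD11b integrin chain, 2.89 ± 0.37, Cd14, the co-receptor for endotoxin, 2.79 ± 0.23, and Mpeg1, a pore-forming protein of phagocytes, 2.66 ± 0.5. The mean log2 CPM of the list lay between 8.41 and 8.49 in the ID gel libraries and between 5.64 and 7.15 in the SC gel libraries. Without SC gel replicates 2 and 4 the counts stayed at 19 and 0 of 23, with a median of 2.66.

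Genes of resident dermal macrophages divided. Among 14 tested genes, 8 were higher in ID gel and 2 in SC gel, with a median of 0.66. Folr2, a folate receptor of resident macrophages, had medians of 326 and 88.5 CPM (1.61 ± 0.21), and Mrc1, the mannose receptor, 733 and 387 (0.99 ± 0.15). Cd163, the haemoglobin scavenger receptor, was higher in ID gel by a smaller margin with overlapping libraries (1.01 ± 0.23). Cd209a, a lectin of dermal macrophages and dendritic cells, was higher in SC gel at levels near 1 CPM (-2.27 ± 0.44), as was the growth factor gene Igf1 (-0.98 ± 0.32), whose libraries overlapped.

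Of 19 tested genes linked to macrophage fusion and the foreign-body response, 13 were higher in ID gel and 2 in SC gel (median 1.40). Mmp9, a gelatinase, had medians of 1004 and 53.3 CPM (3.31 ± 0.75), and without SC gel replicate 2 its difference was 4.18. Oscar, a collagen receptor of osteoclasts and other myeloid cells (3.09 ± 0.3), Spp1, osteopontin (2.67 ± 0.54), and Chi3l1, a chitinase-like secreted protein (2.45 ± 0.15), followed. In the opposite direction were Chit1, the active chitinase of macrophages, with medians of 3.44 CPM in ID gel and 15.5 in SC gel (-2.26 ± 0.15), and the integrin chain gene Itgb3 (-0.64 ± 0.17). Without SC gel replicates 2 and 4 the median was 2.16, with 15 genes higher in ID gel. Within replicates 1 to 3 alone 6 genes were called higher in ID gel, with a median of 1.55.

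The lipid-handling macrophage list held 8 genes higher in ID gel and 4 higher in SC gel among 17 tested. Trem2, a lipid-sensing receptor (2.73 ± 0.44), Olr1, a receptor for oxidised LDL (3.15 ± 0.25), and Itgax, the CD11c chain (2.09 ± 0.43), were higher in ID gel. Plin2, which coats lipid droplets (-1.31 ± 0.16), and Fabp4, a fatty acid carrier that fat cells also make in quantity (-1.13 ± 0.3), were higher in SC gel. The median of this list, 0.20, became -0.01 with library totals.

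Enzymes around arginine and nitric oxide were mostly higher in ID gel, with 7 of 9 tested genes called in that direction and 0 in the other. Slc7a2, an arginine transporter (2.58 ± 0.2), and Gch1, which makes the cofactor of nitric oxide synthase (2.1 ± 0.22), accompanied Nos2 and Acod1. Arg1, arginase 1, ran from 18.8 to 33.8 CPM in ID gel (median 19.8) and from 9.21 to 19 in SC gel (median 13.7), and the sites overlapped. Its difference was 0.71 ± 0.2 (edgeR adjusted p = 0.00777), and with library totals only it was 0.50 with an adjusted p of 0.0506.

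The alternative activation list was also divided, with 7 of 11 tested genes higher in ID gel and 3 higher in SC gel. Socs3, an inhibitor of cytokine signalling (3.6 ± 0.33), and Clec7a, the beta-glucan receptor (3.16 ± 0.42), were higher in ID gel. Ccl24, an eosinophil chemokine (-1.56 ± 0.32), and Pparg, the nuclear receptor that fat cells also express (-1.44 ± 0.12), were higher in SC gel.

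Every tested phagocyte oxidase, Fc receptor and Toll-like receptor gene was called: 19 of 20 tested genes were higher in ID gel, 1 was higher in SC gel, and none of the 20 overlapped between sites. Their median difference was 2.29. Ncf1, a subunit of the NADPH oxidase, had medians of 1229 and 66.5 CPM (3.69 ± 0.56), Fcgr2b, the inhibitory IgG receptor, 998 and 81.8 (3.62 ± 0.21), and Clec4d, a lectin partner of Clec4e, 107 and 8.28 (3.5 ± 0.43). The exception was Fcer1a, the IgE receptor chain of mast cells and basophils (-2.63 ± 0.28).

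Monocyte chemokines were higher in ID gel. Of 15 tested genes of the CC list, 10 were higher in ID gel and 2 in SC gel (median 2.71). Ccl2 ran from 241 to 509 CPM in ID gel (median 379) and from 17.1 to 82 in SC gel (median 21.5), without overlap (3.27 ± 0.46, edgeR adjusted p = 4.4e-05). Ccl12 (4.44 ± 0.68), Ccl3 (3.91 ± 0.61) and Ccl7 (3.8 ± 0.46), which draw monocytes and other leukocytes, moved further. Ccl27, made by keratinocytes (-2.34 ± 0.32), and Ccl21, made by lymphatic endothelium (-2.05 ± 0.33), were higher in SC gel.

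In the CXC list 10 of 15 tested genes were higher in ID gel and 0 in SC gel (median 1.59). The neutrophil chemokines Cxcl6 (4.36 ± 0.32) and Cxcl2 (4.07 ± 0.65) stood beside Cxcl3, all at median levels under 20 CPM in ID gel. The receptor gene Cxcr4 had medians of 158 and 22 CPM (2.53 ± 0.36). Leaving out SC gel replicate 4 moved Cxcl2 to 4.71.

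Among 21 tested inflammatory cytokine and inflammasome genes, 11 were higher in ID gel and 5 in SC gel. Tnf had medians of 19.8 and 1.55 CPM (3.52 ± 0.4), Il6 4.26 and 0.235 (3.62 ± 0.54), Osm 8.1 and 1.06 (2.87 ± 0.24) and Il12b 1.93 and 0.197 (2.99 ± 0.55). Il1b did not pass the test: it ran from 7.91 to 24.7 CPM in ID gel (median 15) and from 9.82 to 15 in SC gel (median 12.8), a difference of 0.31 ± 0.26 (edgeR adjusted p = 0.31), and on log2 FPKM plus 0.1 it was -0.02. Higher in SC gel were the epithelial cytokines Il36g (-1.67 ± 0.36) and Il36b (-1.19 ± 0.15) and the decoy receptor Il1r2 (-1.12 ± 0.2).

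Prostaglandin and leukotriene genes divided by enzyme. Of 12 tested, 8 were higher in ID gel and 2 in SC gel. Pla2g2a, a secreted phospholipase, had medians of 1412 and 321 CPM (2.02 ± 0.29), and Ptgs2, cyclooxygenase 2, 16.7 and 5.75 (1.87 ± 0.35). Hpgds, the prostaglandin D synthase of mast cells and other haematopoietic cells (-2.54 ± 0.26), and Ltc4s, the leukotriene C4 synthase (-1.18 ± 0.29), were higher in SC gel.

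Neutrophil genes did not move as a group, with 4 of 12 tested genes higher in ID gel, 4 higher in SC gel and 4 not called. Both shares were near those of all tested genes, 32.8% and 32.2%. Cxcr1 had medians of 27.8 and 1.61 CPM (3.59 ± 0.56), whereas Cxcr2, the related receptor for CXC chemokines, had 5.72 and 16.7 (-1.61 ± 0.21). Lcn2, an iron-binding protein that epithelia also make (3.34 ± 0.37), and Csf3r, the receptor for granulocyte colony-stimulating factor (1.73 ± 0.26), were higher in ID gel. Ngp, a granule protein (-2.9 ± 0.51), and Lrg1 (-1.07 ± 0.19) were higher in SC gel. Leaving out ID gel replicate 6 moved Ngp to -3.54. The defining markers S100a8 (-0.72, adjusted p = 0.132) and S100a9 (-0.70, 0.124) were among the 4 genes not called, a choice of names made after their values were seen. Without ID gel replicate 6 both were called higher in SC gel, at -1.07 (0.025) and -1.03 (0.0223), as was S100a8 without SC gel replicate 1 (-0.91, 0.045). On log2 FPKM plus 1, S100a9 was called at -0.99 (0.0423).

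Of 15 tested T and NK cell genes, 7 were higher in ID gel and 1 in SC gel. Cd3e, part of the T cell receptor complex, ran from 1.3 to 3.29 CPM in ID gel (median 2.08) and from 1.19 to 2.39 in SC gel (median 1.9), and did not pass the test (0.24 ± 0.28, edgeR adjusted p = 0.471). Within replicates 4 to 6 alone its difference was -0.22. Cd8a had medians of 37.4 and 3.9 CPM (3.19 ± 0.65), Cd8b 20.1 and 3.6 (2.54 ± 0.43), and the kinase gene Lck 7.37 and 3.32 (1.0 ± 0.22), so Cd8a stood far above Cd3e in ID gel while Cd3e was near 2 CPM. Cd247, the zeta chain of the receptor complex, was higher in SC gel (-0.54 ± 0.17), a call lost when all 24 libraries were fitted (adjusted p = 0.108). Among 4 tested B cell genes the only call was Fcrla, an Fc receptor-like protein (4.38 ± 0.37).

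Mast cell genes were higher in SC gel, with 10 of 11 tested genes called in that direction, 0 in the other and a median of -2.38. Cpa3, the mast cell carboxypeptidase, ran from 44.4 to 105 CPM in SC gel (median 62.1) and from 5.26 to 15.4 in ID gel (median 12.2). Its difference was -2.57 ± 0.27 (edgeR adjusted p = 5.36e-06), and the libraries did not overlap. Ms4a2, the IgE receptor beta chain, differed by -2.47 ± 0.25. The list summed to between 42.37 and 86.11 CPM in the ID gel libraries and between 227.1 and 377.7 in the SC gel libraries. Of 8 tested type 2 and eosinophil genes, 3 were higher in ID gel, among them the IL-33 receptor Il1rl1 (1.62 ± 0.24), and 2 in SC gel, the transcription factor Gata3 (-2.1 ± 0.29) and the growth factor Areg (-2.2 ± 0.4). With shares of 32.8% and 32.2% over all tested genes, these type 2 counts say little about the list.

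Dendritic and Langerhans cell genes went in both directions. Of 16 tested, 10 were higher in ID gel and 3 in SC gel. Ccr7, which guides mature dendritic cells to lymph nodes (3.12 ± 0.25), and the costimulator Cd80 (2.36 ± 0.26) were higher in ID gel. Cd207, langerin, which marks Langerhans cells of the epidermis, had medians of 8.34 CPM in ID gel and 38.2 in SC gel (-2.23 ± 0.25), and Epcam, shared by Langerhans cells and epithelium, differed by -2.63 ± 0.28.

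Antigen presentation and interferon genes were higher in ID gel by modest margins. Of 10 tested MHC class II genes, 8 were higher in ID gel and 1 in SC gel (median 0.75): RT1-DMb, a peptide-loading chain, differed by 1.59 ± 0.11, Cd74, the invariant chain, by 0.97 ± 0.13, and RT1-DOb by -0.71 ± 0.16. Of 10 tested class I and immunoproteasome genes, 8 were higher in ID gel and 0 in SC gel (median 0.81), including Psmb9 (1.62 ± 0.17), Tap1 (1.52 ± 0.19) and B2m (1.11 ± 0.17). Of 20 tested interferon response genes, 14 were higher in ID gel and 1 in SC gel, with Oasl at 2.46 ± 0.33, Irf1 at 2.21 ± 0.31, Mx1 at 1.9 ± 0.51 and, in the other direction, Isg20 at -1.69 ± 0.31. The median of the interferon list was 1.80 within replicates 1 to 3 and 0.41 within replicates 4 to 6, where 9 genes were higher in ID gel and 4 in SC gel.

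Complement genes divided, with 7 of 16 tested genes higher in ID gel and 2 in SC gel, or 4 and 4 with library totals. The median was 0.25, or 0.04 with library totals. C3, the central component, had medians of 49.4 and 3.26 CPM (3.75 ± 0.4), and C5ar2, a receptor for C5a, 173 and 38.1 (1.93 ± 0.24). Clu, clusterin (-1.7 ± 0.22), and Cfd, complement factor D or adipsin, which fat cells secrete (-1.62 ± 0.25), were higher in SC gel.

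**Figure D3:**
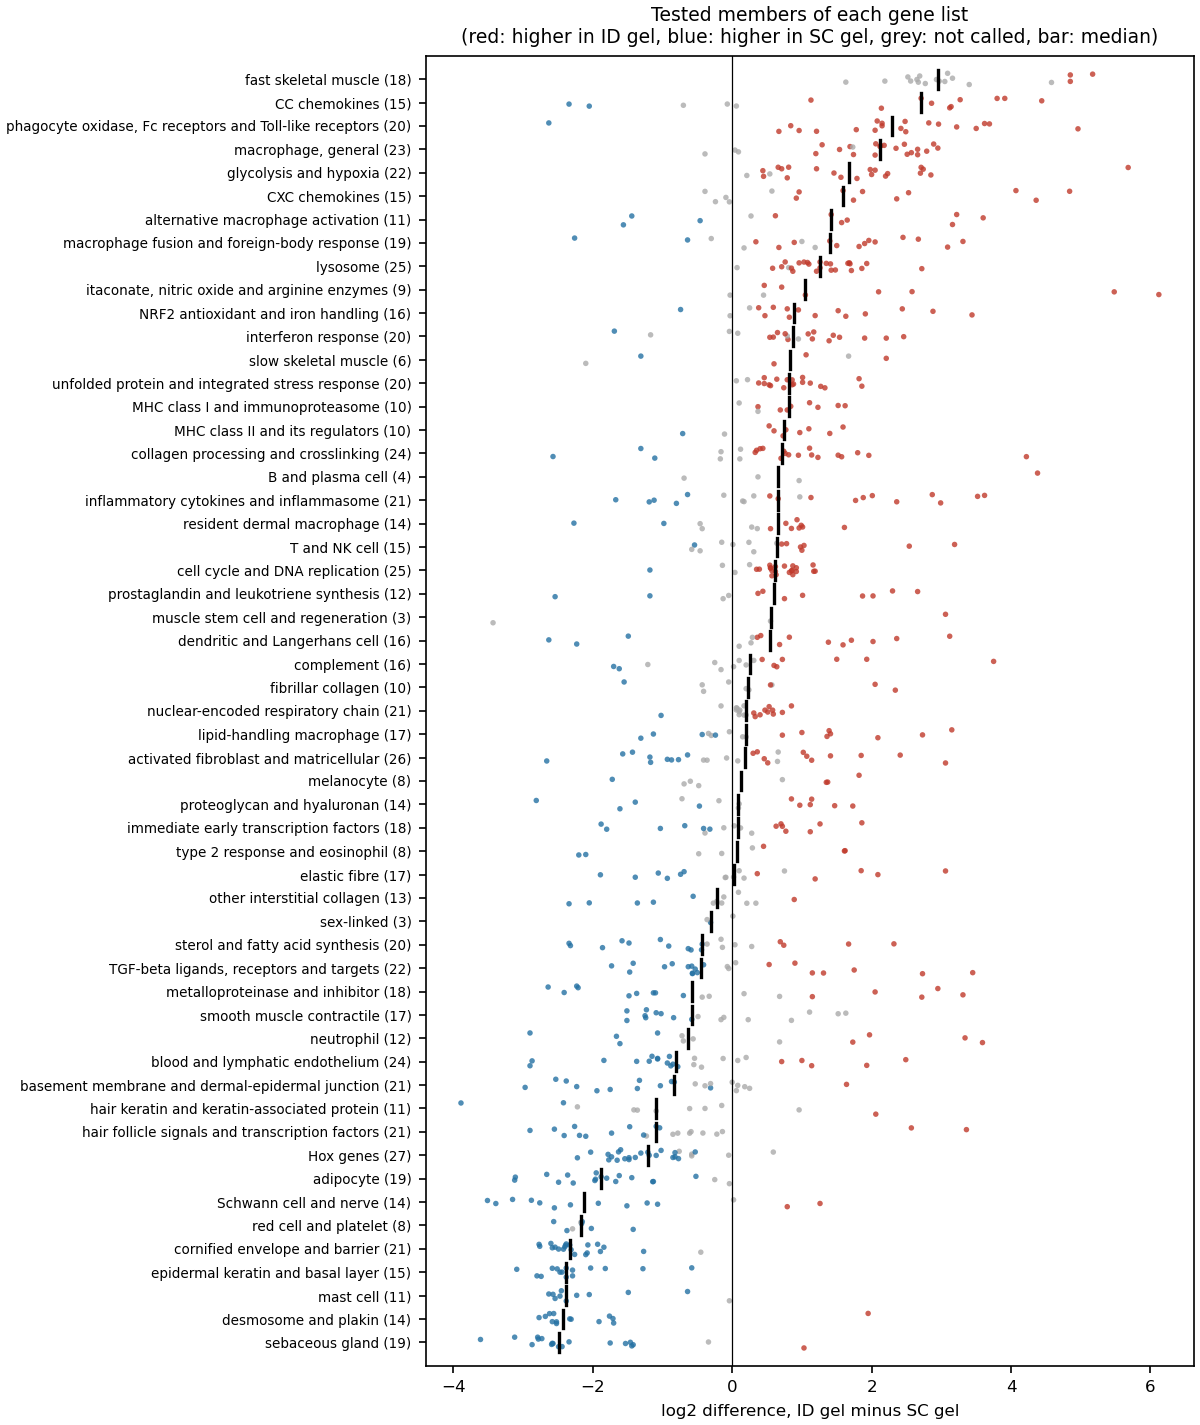
Differences of the tested members of each gene list, with the number tested in brackets. The x axis is the log2 difference of ID gel minus SC gel, points are genes, red and blue mark genes called higher in ID gel and SC gel, grey marks genes not called, and bars are medians. Phagocyte, chemokine and glycolysis lists lie to the right, epidermal, sebaceous, mast cell and Schwann lists to the left, and the fast muscle list has a high median with 3 of 18 genes called.

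The main collagens did not pass the test between the sites. Col1a1 ran from 9614 to 26220 CPM in ID gel (median 13090) and from 14530 to 34090 in SC gel (median 20320), with overlap (-0.41 ± 0.31, edgeR adjusted p = 0.249). Col1a2 differed by -0.43 ± 0.29 (0.212) and Col3a1, with medians of 12960 and 12570 CPM, by 0.2 ± 0.25 (0.505). The spread within a site exceeded these differences, and such p-values do not show equal levels. On log2 FPKM plus 1, Col1a2 was called at -0.67 (adjusted p = 0.0469) and Col3a1 was at -0.01.

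Some less abundant fibrillar collagens did differ. Of all 10 tested fibrillar collagens, 3 were higher in ID gel and 1 in SC gel. Neither share exceeded that of all tested genes, 32.8% and 32.2%. Col5a3, a type V chain, ran from 301 to 576 CPM in ID gel (median 418) and from 57.1 to 123 in SC gel (median 82.2), a difference of 2.34 ± 0.22. Col24a1 differed by 2.05 ± 0.18 at lower levels, and Col11a2 by -1.55 ± 0.35 near 1 CPM. In the other interstitial collagens, 1 of 13 tested genes was higher in ID gel, Col12a1 (0.89 ± 0.17), and 5 were higher in SC gel, among them Col8a2 (-2.34 ± 0.34) and Col28a1 (-2.05 ± 0.42).

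Genes that modify and crosslink collagen were mostly higher in ID gel, with 17 of 24 tested genes in that direction, 3 in the other and a median of 0.72. Plod2, the lysyl hydroxylase that directs hydroxyallysine crosslinks, ran from 35.6 to 77.7 CPM in ID gel (median 59.5) and from 2.52 to 4.35 in SC gel (median 2.99). Its difference was 4.22 ± 0.23 (edgeR adjusted p = 1.68e-07). P4ha1, a prolyl hydroxylase subunit, differed by 1.96 ± 0.13, and Lox, lysyl oxidase, by 0.44 ± 0.12, a call that was lost with library totals (0.24, adjusted p = 0.07). P3h2, a prolyl hydroxylase of basement membrane collagen (-2.57 ± 0.28), and Loxl4 (-1.11 ± 0.11) were higher in SC gel.

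Proteases and their inhibitors went both ways but leaned to SC gel, with 5 of 18 tested genes higher in ID gel and 9 higher in SC gel (median -0.57). The shares of all tested genes were 32.8% and 32.2%. Timp1, an inhibitor of metalloproteinases, had medians of 405 and 51.4 CPM (2.95 ± 0.21), Mmp7 3.67 and 0.519 (2.72 ± 0.27), and Mmp12, macrophage elastase, 150 and 29.1 with overlap (2.05 ± 0.62). Without SC gel replicate 2, Mmp12 differed by 2.70, and without SC gel replicates 2 and 4 by 3.14. Mmp13, a collagenase (-2.64 ± 0.65), and Mmp11 (-2.41 ± 0.44) were higher in SC gel, with overlap for Mmp13.

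Of 21 tested genes of the basement membrane and dermal-epidermal junction, 12 were higher in SC gel and 1 in ID gel (median -0.83). Col7a1, the anchoring fibril collagen, had medians of 8.43 CPM in ID gel and 49.3 in SC gel (-2.53 ± 0.22), Col17a1, of hemidesmosomes, 65.3 and 355 (-2.38 ± 0.14), and Lamb3, a laminin 332 chain, 10.9 and 53.6 (-2.23 ± 0.19). The exception was Nid2, nidogen 2 (1.64 ± 0.11).

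Elastic fibre genes were 5 higher in ID gel and 6 higher in SC gel among 17 tested, near the shares of all tested genes (32.8% and 32.2%). Emilin1 (3.06 ± 0.16) and Ltbp2 (2.09 ± 0.26) were higher in ID gel, and elastin itself, Eln (-1.39 ± 0.22), and Ltbp4, needed for its assembly (-1.89 ± 0.25), in SC gel. Of 14 tested proteoglycan and hyaluronan genes, 6 were higher in ID gel, such as Vcan, versican (1.73 ± 0.16), and the hyaluronan receptor Cd44 (1.47 ± 0.21). The 4 higher in SC gel included the small leucine-rich proteoglycans Omd (-2.81 ± 0.44), Fmod (-1.61 ± 0.21) and Dcn (-0.47 ± 0.13), of which Dcn lost its call when all 24 libraries were fitted (adjusted p = 0.0956). The medians of the elastic and proteoglycan lists, 0.02 and 0.09, became -0.20 and -0.12 with library totals.

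In the TGF-beta list 7 of 22 tested genes were higher in ID gel and 12 in SC gel (median -0.45), so the list leaned to SC gel. The shares of all tested genes were 32.8% and 32.2%. Calls of at least 1 log2 unit numbered 5 higher in ID gel and 3 higher in SC gel. Tgfb1 ran from 158 to 248 CPM in ID gel (median 186) and from 40.1 to 94.7 in SC gel (median 48.4), without overlap (1.75 ± 0.21, edgeR adjusted p = 1.56e-05). The receptor gene Tgfbr1 differed by 1.31 ± 0.21. Gdf15 differed by 2.73 ± 0.55, or by 3.53 without SC gel replicate 2 and 4.21 without SC gel replicates 2 and 4, and Bmp4 by -1.47 ± 0.2.

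Of 26 tested genes of activated fibroblasts and matricellular proteins, 11 were higher in ID gel and 9 in SC gel. Fn1, fibronectin, was the most abundant of those named, at 8642 to 14790 CPM in ID gel (median 10350) and 1084 to 3065 in SC gel (median 1820), a difference of 2.41 ± 0.27. Ncam1, a cell adhesion molecule, differed by 3.06 ± 0.19. Postn, periostin, had the opposite pattern, with medians of 651 CPM in ID gel and 1769 in SC gel (-1.57 ± 0.24), as did Thbs2 (-1.43 ± 0.15) and the BMP antagonist Grem1 (-2.66 ± 0.31). The named genes went in both directions, as did all tested genes, with 32.8% higher in ID gel and 32.2% in SC gel. The median of this list, 0.19, became -0.02 with library totals, and those of the type 2, melanocyte and immediate early lists also changed sign.

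Contractile genes of smooth muscle were called higher in SC gel for 9 of 17 tested genes and higher in ID gel for 0. Acta2, smooth muscle actin, had medians of 136 and 229 CPM (-0.87 ± 0.24), and Myh11, smooth muscle myosin, 46.1 and 129 (-1.51 ± 0.26). Lmod1 differed by -1.51 ± 0.29. When all 24 libraries were fitted, 3 genes of the list were higher in ID gel and 9 in SC gel. The list median was -0.58, and without ID gel replicate 5 and SC gel replicate 1 it was -1.01 with 11 genes called. The list holds genes shared with skeletal muscle, and its summed level reached 4585 CPM in ID gel against a median of 989.2.

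Endothelial genes were 5 higher in ID gel and 13 higher in SC gel among 24 tested (median -0.81). The adhesion molecules Icam1 (2.49 ± 0.27) and Vcam1 (1.93 ± 0.16), which bind leukocytes and are made by other cells too, were higher in ID gel. Pecam1, CD31, was higher in SC gel (-0.93 ± 0.24), and so were Sele, E-selectin (-1.84 ± 0.15), and the lymphatic genes Mmrn1 (-2.9 ± 0.23) and Prox1 (-2.87 ± 0.38). The median of this list was -1.26 within replicates 1 to 3 and -0.32 within replicates 4 to 6.

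Schwann cell and nerve genes were higher in SC gel for 11 of 14 tested genes and in ID gel for 2 (median -2.12). Scn7a, a sodium channel gene, ran from 15.9 to 33.6 CPM in SC gel (median 22.2) and from 1.79 to 4.66 in ID gel (median 2.98), and the sites did not overlap. Its difference was -2.88 ± 0.25 (edgeR adjusted p = 1.68e-06), and that of the cadherin gene Cdh19, at lower levels, was -3.51 ± 0.46. Egr2, a transcription factor of myelinating cells that macrophages also express, was higher in ID gel (1.26 ± 0.2).

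Epidermal genes were higher in SC gel almost without exception. All 15 tested genes of the epidermal keratin and basal layer list were called in that direction (median -2.38), as were 20 of 21 cornified envelope genes (median -2.33) and 13 of 14 desmosome genes (median -2.43). Krt5, the basal layer keratin, ran from 1523 to 2395 CPM in SC gel (median 1784) and from 158 to 532 in ID gel (median 290), without overlap (-2.58 ± 0.29, edgeR adjusted p = 8.51e-06). No row carried the name of Krt14, its partner, and the row named Krt15 was not used because its name and gene number disagree. Itgb4, the hemidesmosome integrin (-2.8 ± 0.24), Elovl4, which makes the very long fatty acids of the barrier (-2.77 ± 0.28), Lce1l (-2.76 ± 0.28), Tgm5 (-2.6 ± 0.31), Dsp, desmoplakin (-2.68 ± 0.24), and Perp (-2.77 ± 0.27) lay close together. The desmosome exception was Dsc2, higher in ID gel with medians of 37.2 and 10 CPM (1.95 ± 0.26).

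These lists also varied more within ID gel than within SC gel, with median SDs of log2 CPM of 0.705 against 0.234 for the epidermal keratin list. The median difference of that list was -3.19 within replicates 1 to 3 and -1.90 within replicates 4 to 6. The amount of epidermis in each piece of skin was not measured, and its part in these differences was not tested.

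Hair keratins were mostly not called: 1 of 11 tested genes was higher in ID gel, Krt75 of the companion layer (2.06 ± 0.35), and 2 were higher in SC gel, Krtap11-1 and Krt32 (-2.42 ± 0.76). Krt32 was at -3.13 without ID gel replicate 1 and at -1.82 without SC gel replicate 3. The list median changed sign between replicates 1 to 3 (-2.14) and 4 to 6 (2.92), and within the latter 9 of 10 tested genes were called higher in ID gel. Of 21 tested follicle signals and transcription factors, 2 were higher in ID gel, the Wnt inhibitor Sfrp2 (3.36 ± 0.25) and the dermal growth factor Fgf7 (2.57 ± 0.26), both also made by fibroblasts, and 11 were higher in SC gel, among them Wnt3 (-2.9 ± 0.21) and Sox9 (-2.55 ± 0.31).

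The melanocyte list, in albino animals, held 3 of 8 tested genes higher in ID gel and 1 in SC gel. Gpnmb, which macrophages make in large amounts, had medians of 14540 and 3164 CPM (1.82 ± 0.53), and without SC gel replicates 2 and 4 its difference was 2.89. Mitf, a transcription factor shared with macrophages, had 124 and 48 (1.35 ± 0.11). Mlana, a melanosome protein, went the other way (-1.72 ± 0.28), and the pigment enzyme genes Tyr, Tyrp1 and Dct were not called.

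Sebaceous gland genes were higher in SC gel for 17 of 19 tested genes and in ID gel for 1, Fads2 (1.03 ± 0.21), with a median of -2.49. Scd3, the desaturase of sebocytes in rodents, had medians of 188 CPM in ID gel and 1744 in SC gel (-3.12 ± 0.35), and Awat2, a wax synthase, 48.6 and 373 (-2.87 ± 0.32). Adipocyte genes were higher in SC gel for 17 of 19 and in ID gel for 0 (median -1.88). Adipoq, adiponectin, ran from 201 to 1460 CPM in SC gel (median 655) and from 91.6 to 149 in ID gel (median 112), without overlap (-2.66 ± 0.36, edgeR adjusted p = 3.73e-05). Lep, leptin (-3.11 ± 0.47), and Cidea, a lipid droplet protein also found in sebaceous glands (-2.49 ± 0.21), followed. The adipocyte list summed to 2528 CPM in SC gel replicate 4, within the range of 2030 to 2902 in ID gel, and reached 8176 in SC gel replicate 1.

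Lipid synthesis genes also went in both directions. Of 20 tested, 4 were higher in ID gel and 11 in SC gel. Insig1, a brake on sterol synthesis, had medians of 1218 and 267 CPM (2.32 ± 0.2), and the desaturase gene Scd2 4126 and 1295 (1.67 ± 0.18). In the other direction, Elovl6, a fatty acid elongase, had 24.6 in ID gel and 122 in SC gel (-2.34 ± 0.21), and Fasn, fatty acid synthase, 232 and 680 (-1.58 ± 0.24).

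Fast skeletal muscle genes had the highest list median, 2.95, with 3 of 18 tested genes called and 0 of 18 free of overlap. The median was 0.52 with 0 genes called within replicates 1 to 3 and 6.71 with 6 of 11 called within replicates 4 to 6. With all 24 libraries 10 of 18 were called, and without SC gel replicates 2 and 4 only 1. Ckm, muscle creatine kinase, ran from 0.0584 to 1290 CPM in ID gel (median 48.8) and from 0 to 124 in SC gel (median 0.183), and did not pass the test (3.4 ± 2.01, edgeR adjusted p = 0.152). Actn3 (5.17 ± 1.68, 0.0158) and Pvalb (4.85 ± 1.39, 0.00776) did. Without ID gel replicate 5 their differences were 2.82, no longer called at 0.0709, and 2.56. Without SC gel replicate 1 as well, Pvalb was at 2.72. Actn3 was not called without SC gel replicates 2 and 4 either (4.64, 0.0633). With voom and quality weights neither was called, at 2.48 (0.368) for Actn3 and 1.39 (0.461) for Pvalb. Without SC gel replicate 1, Ckm was called at 5.79 (0.0401) and Actn3 stood at 6.79. The summed level of the list ran from 19.68 to 22360 CPM in ID gel and from 25.4 to 2565 in SC gel, against 39000 to 97110 in SC saline and 63780 to 83510 in ID saline. Of 6 tested slow muscle genes, 3 were higher in ID gel, 1 in SC gel and 2 were not called. Those higher in ID gel were Tnnt1, slow troponin T (2.21 ± 0.53, or 1.34 without ID gel replicate 5), and Tpm3 (1.06 ± 0.14) and Atp2a2 (0.6 ± 0.09), which non-muscle cells also express. The myosin gene Myh7b was higher in SC gel (-1.31 ± 0.28). Of 3 tested muscle stem cell genes, 1 was higher in ID gel and 0 in SC gel, and of 3 sex-linked genes 0 and 1.

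**Figure D4:**
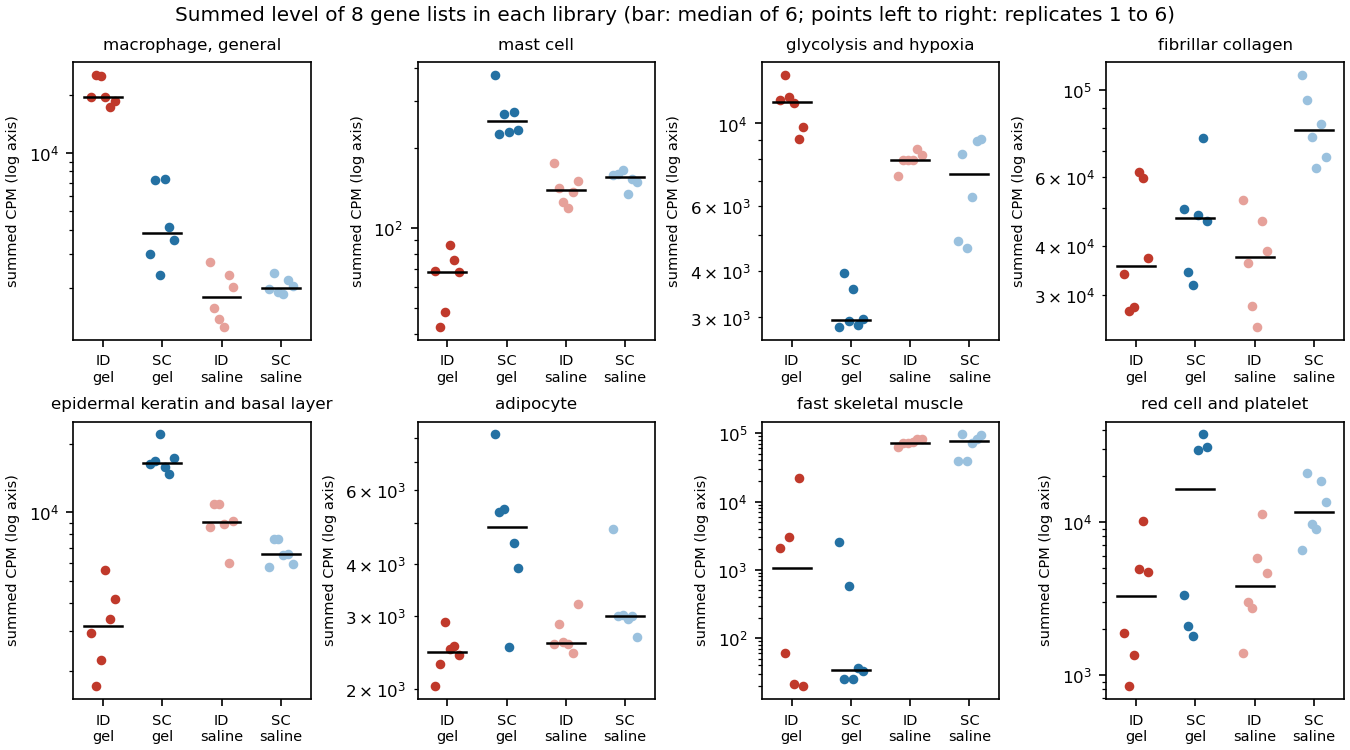
Summed CPM of 8 gene lists in each library of the 4 groups. The y axes are log scales, points are libraries in replicate order and bars are medians of 6. The macrophage sums are highest in ID gel, at 17340 to 25310 CPM, the mast cell and epidermal keratin sums are highest in SC gel, fibrillar collagen overlaps between the gel sites, and fast muscle and red cell sums vary widely within a gel site.

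Genes of metabolism and cell state were mostly higher in ID gel. Glycolysis and hypoxia genes were higher there for 20 of 22 tested genes and in SC gel for 0 (median 1.68). Slc2a1, the glucose transporter GLUT1, ran from 332 to 784 CPM in ID gel (median 572) and from 61.3 to 98.1 in SC gel (median 82.1), a difference of 2.85 ± 0.2 (edgeR adjusted p = 5.37e-07). The hexokinase genes Hk3, of myeloid cells (2.74 ± 0.57), and Hk2 (2.71 ± 0.22) moved alike. The list summed to between 9074 and 13520 CPM in ID gel and between 2826 and 3956 in SC gel.

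Lysosomal genes were higher in ID gel for 23 of 25 tested genes and in SC gel for 0 (median 1.26). The cathepsin genes Ctsz (2.72 ± 0.36), Ctsd (1.93 ± 0.27) and Ctsb (1.86 ± 0.29) were among the most abundant genes of the table, with Ctsb at a median of 9452 CPM in ID gel and 2232 in SC gel. Of 20 tested stress response genes, 18 were higher in ID gel and 0 in SC gel (median 0.82), with Atf3 at 1.86 ± 0.34, the chaperone gene Sdf2l1 at 1.82 ± 0.29 and Ddit3, CHOP, at 1.33 ± 0.2.

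Of 16 tested antioxidant and iron genes, 13 were higher in ID gel and 1 in SC gel, Gclm (-0.74 ± 0.15). Slc11a1, the phagosomal metal transporter NRAMP1, had medians of 436 and 25.5 CPM (3.44 ± 0.58), Hmox1, heme oxygenase 1, 620 and 66.5 (2.88 ± 0.25), and the ferritin genes Fth1 7169 and 1108 (2.44 ± 0.22) and Ftl1 6430 and 1399 (1.91 ± 0.35). Ferritin is a large family with processed copies, so reads of Fth1 and Ftl1 may be shared with them.

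Cell cycle genes were higher in ID gel for 21 of 25 tested genes, by about 1 log2 unit at most: Aurkb differed by 1.19 ± 0.23, Plk1 by 1.17 ± 0.16 and Rrm2 by 1.16 ± 0.23. The single gene higher in SC gel was Aurka (-1.18 ± 0.2). With library totals 16 cell cycle genes were higher in ID gel, and within replicates 4 to 6 alone 11 were. Respiratory chain genes were 10 higher in ID gel and 1 in SC gel among 21 tested, with small differences such as Sdhb (0.85 ± 0.12) and, in the other direction, Ndufa4 (-1.02 ± 0.17). With library totals these counts were 7 and 2, and the list median of 0.20 became -0.00. Immediate early genes were 7 and 6 of 18, near the shares of all tested genes (32.8% and 32.2%). Among them, Klf6 (0.77 ± 0.1) was higher in ID gel, and Egr3 (-1.88 ± 0.21) and Fosb (-1.8 ± 0.36) in SC gel.

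Hox genes, which keep the positional identity of skin cells, were higher in SC gel for 22 of 27 tested genes and in ID gel for 0 (median -1.21). Hoxa9 had medians of 9.73 CPM in ID gel and 39.6 in SC gel (-2.22 ± 0.22), and Hoxd10 0.739 and 3.2 (-2.03 ± 0.35). When all 24 libraries were fitted, 1 Hox gene was higher in ID gel and 20 in SC gel. The median was -1.70 within replicates 1 to 3 and -0.70 within replicates 4 to 6.

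Red cell genes were called higher in SC gel for 6 of 8 tested genes and in ID gel for 0, and the number of calls depended on the libraries and the scale. Hba-a2, a haemoglobin alpha chain with near-identical copies, ran from 1622 to 34020 CPM in SC gel and from 759 to 9118 in ID gel, with replicates 4 to 6 high at both sites. Its difference was -2.16 ± 0.87 (edgeR adjusted p = 0.0428), and leaving out any of ID gel replicates 1, 2, 3, 4 and 6 or SC gel replicates 4, 5 and 6 took the adjusted p to between 0.0575 and 0.0919. For Ahsp (-2.37 ± 0.95, 0.0415) leaving out the same libraries gave 0.0532 to 0.0964. The list had 8 of 8 genes called within replicates 4 to 6, with library totals, with all 24 libraries and without ID gel replicate 5 and SC gel replicate 1. It had 1 of 7 called within replicates 1 to 3 and 1 of 7 on log2 FPKM plus 1.

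Saline skin gives a background for the distance between the sites without gel. Its libraries were not alike in muscle content to those of gel. Fast muscle genes summed to medians of 72970 CPM in ID saline and 77610 in SC saline, against 1061 in ID gel and 34.49 in SC gel. The part of this in the saline comparison was not tested. Between ID saline and SC saline 667 of 14220 tested genes were called, 4.69%, in 12 libraries measured the same way. This count was 213 without ID saline replicate 3 and 1237 without SC saline replicate 5. Of the 13699 genes tested in both comparisons, 402 were called in both, which is 4.52% of the gel calls and 63.6% of the saline calls. Among these 13699 genes, 8893 were called in gel and 632 in saline. The 63.6% was close to the 65.1% of all tested genes called in gel, and the 4.52% to the 4.69% called in saline. The overlap therefore says little. The 402 genes had the same direction for 184 and the opposite direction for 218. In saline the macrophage list had 0 genes higher in ID and 1 higher in SC (median -0.14), and the epidermal keratin list had 0 called (median 0.27). Col3a1 and Col1a1 were lower in ID saline than in SC saline, at -1.26 (edgeR adjusted p = 0.0086) and -1.14 (0.019), whereas neither passed the test between the gel sites. The difference between these comparisons was not tested here. In the deposited table the ID saline columns stand beside those of SC gel and the SC saline columns beside ID gel, an order not used for grouping. Whether the labels of the saline groups were exchanged could not be checked, and an exchange would turn the sign of every saline difference given here.

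**Figure D5:**
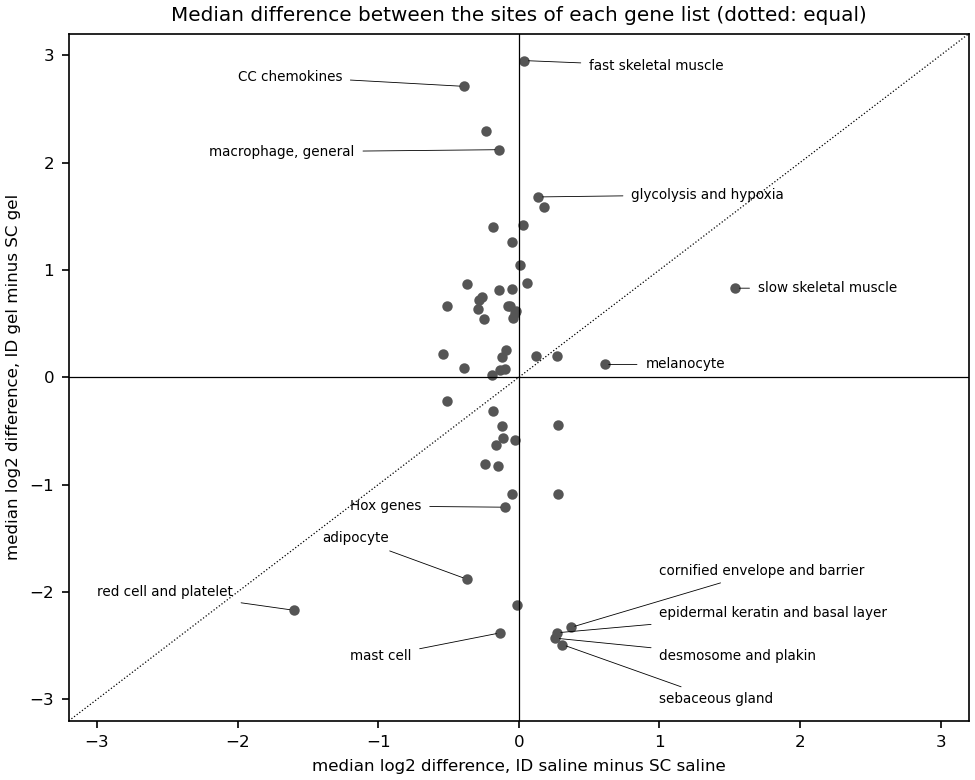
Median difference between the sites for each gene list, in saline on the x axis and in gel on the y axis, both as log2 of ID minus SC. Each point is a list, and the dotted line marks equal values. Most points lie near 0 in saline and spread from -2.49 to 2.95 in gel, and the red cell list (-1.60 in saline) and the slow muscle list (1.54) stand out along the x axis.

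The spread within a site differed by gene group. Over all tested genes the median SD of log2 CPM was 0.203 in ID gel and 0.232 in SC gel, and 54.9% of genes had the larger SD in SC gel. For the macrophage list 19 of 23 genes were more variable in SC gel (median SD 0.692 against 0.248), for lysosomal genes 23 of 25 and for adipocyte genes 19 of 19. The reverse held for the cornified envelope list, where 0 of 21 genes were more variable in SC gel, for smooth muscle (1 of 17) and for endothelium (4 of 24).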

How the data were processed

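Total RNA from dorsal skin was made into stranded mRNA libraries, per the labels' protocols. The authors deposited a read count and an FPKM value per gene and library, per the file headers. DESeq2 1.12.4, StringTie 1.3.3b, Trimmomatic 0.36 and FastQC 0.11.2 are named without roles, per the submitters' processing notes. No source used here gives the aligner, the counter or its strand setting. The notes name Rnor_6.0, but 47 genes lie on unplaced sequences whose names belong to a later assembly, so file coordinates are not printed. The deposited FPKM values were the deposited count scaled by gene length and library total with a factor of 0.99968 to 1.0. All columns of values were mapped to a sample by library name.

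Symbols came from the file (19985 genes) or, through gene numbers, from RefSeq (336). Genes whose name and number conflicted (533) were left out of lists and names. Counts of the 12 gel libraries were tested with edgeR 4.0.16 (limma 3.58.1, R 4.3.3): filterByExpr by group, TMM factors, a quasi-likelihood test with 10 residual degrees of freedom, and Benjamini-Hochberg adjustment at 0.05. The saline libraries were tested likewise. SEs are the log2 difference over the square root of F. Levels in saline used factors from all 24 libraries.

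Named genes were the 10 largest called differences per direction with a mean of at least 2 CPM and no overlap, up to 4 per direction and list, and a panel. Some genes that the rule names are not reported here. The 55 lists held 1063 entries, of which 58 had no match, 7 conflicted, 120 were too low and 878 were tested. Members, lists, panel and rule were chosen with earlier results of these data known. The method was tested on simulated data for ID gel against SC gel over 14072 genes, of which 200 were changed. It recovered 25 of 50 genes changed 1.5-fold, 37 of 50 changed 2-fold, 48 of 50 changed 4-fold and 36 of 47 changed 0.5-fold. The gel comparison itself called 9155 genes, and recovery at such a share of changed genes was not tested. Precision at low levels is limited by counting error.

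Alternatives were RLE, upper quartile or no factors, no filter or 10 counts in 6 libraries, DESeq2 1.42.0, voom with quality weights, robust fitting, all 24 libraries, a replicate block, log2 FPKM with pseudocounts of 1 and 0.1 (limma, at least 1 FPKM in 6 libraries, or no filter), a test against 1 log2 unit, each library omitted in turn, replicates 1 to 3 or 4 to 6 alone, and a term for that split. Leaving out SC gel replicates 2 and 4, or ID gel replicate 5 and SC gel replicate 1, was added after seeing the data.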

Additional observations from a re-analysis of the deposited data

Results flagged for a closer look

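In 21 of 446 checked groups of 6 gel libraries, for the 223 named genes at each site, a single library stood far from the nearest of the rest relative to the range of the group. The cutoff would flag about 1 in 20 groups of independent, normally distributed values. CPM values of genes that vary together are not such values, so the number cannot be compared with chance. None of the flagged values was given an explanation.

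Muscle genes stood out in ID gel replicate 5, where Ckm was at 1290 CPM against 0.0584 to 176 in the rest, Actn3 at 916 against 1.17 to 100, Pvalb at 311 against 0.538 to 31.9, and Tnnt1 at 12.3 against 1.4 to 3.08. In SC gel replicate 1, Ckm was at 124 CPM against at most 22.1, and Actn3 at 22.2 against at most 3.91.

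In ID gel replicate 6, Fgf23 was at 28.8 CPM against 5.32 to 13.5, Il6 at 9.75 against 3.29 to 5.64, Ccl21 at 73.2 against 20.9 to 39.4, Plin2 at 203 against 149 to 161 and Mettl7b at 0.876 against 0.07 to 0.353. In SC gel replicate 3, Krtap11-1 was at 18.6 CPM against 1.7 to 4.45, Krt32 at 4.82 against 0.281 to 1.72 and Dsp at 2050 against 1290 to 1470.

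The other high values were Serpina3n at 12.4 CPM and Eln at 341 in SC gel replicate 4, Krtap11-1 at 1.06 and Bmp4 at 18.9 in ID gel replicate 4, Slc7a2 at 27.3 in SC gel replicate 5 and Ngp at 5.09 in SC gel replicate 6. The single low value was Aurka at 13.9 CPM in ID gel replicate 2, against 18.2 to 20.3 in the rest of its group.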

How the results depend on the processing

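Of 223 named genes, 220 kept their direction under all 31 alternatives, and 162 kept direction and call. Of 6882 gene values under the alternatives, 117 lost a call and 9 gained one. The reversals were Il1b on log2 FPKM (-0.02 with a pseudocount of 0.1, -0.00 with 1 and with no filter), Col3a1 on log2 FPKM (-0.01 in all 3 settings) and with library totals (-0.01), and Cd3e within replicates 4 to 6 (-0.22). The number of called genes was 2256 against a limit of 1 log2 unit, with 840 higher in ID gel and 1416 higher in SC gel. On log2 FPKM, 3053 genes were higher in ID gel with a pseudocount of 1 and 3050 with 0.1, and 6869 were higher in SC gel without a filter. Calls of at least 1 log2 unit higher in ID gel numbered 842 on log2 FPKM plus 1 and 847 without a filter. Leaving out each gel library gave 8700 to 9385 calls. For saline the count was 1503 with DESeq2, 1124 with voom, 7 against 1 log2 unit, 389 on log2 FPKM without a filter and 213 to 1237 with single libraries left out. It was 213 to 408 without any of ID saline replicates 2, 3, 4 and 6 or SC saline replicates 1, 2 and 4, and 1237 without SC saline replicate 5. The cause of these shifts was not tested.

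Same-numbered gel libraries of the sites had correlations of their deviations from -0.06 to 0.41, and 5 of 12 libraries correlated best with their own number. No label states a pairing, and these correlations do not settle whether the numbers pair the samples. With a replicate block the gel comparison gave 8941 calls and the saline comparison 1055. Of the named muscle genes, Actn3 (3.07, adjusted p = 0.0776) and Pvalb (2.40, 0.123) were not called with the block.

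Without SC gel replicates 2 and 4 there were 9524 calls, and without ID gel replicate 5 and SC gel replicate 1 there were 8963. Depth limits genes near 1 CPM, where 1 site holds a handful of counts per library and the size of a difference depends on the model's added count.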
